A study of Mus musculus with 9 samples.

Results

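Gene expression was compared between bone-marrow-derived mast cells from AhR null mice and from control mice, described as normal, on 3 arrays per group. These 6 arrays, of 9 in all, were chosen by genotype, and each AhR null array was paired with the control array that carries the same culture batch number, 1 to 3. The labels give C57BL/6J as the strain of both groups. Marrow cells of both groups were grown for 4 weeks in medium with 30% conditioned medium of WEHI-3 cells, a mouse line that secretes interleukin-3, purified by magnetic removal of other cells, and rested for 4 h without cytokine. The arrays of another genotype, AhR-d, are not compared here. How the null allele was made, whether the controls were littermates and how many animals gave each culture are not given in the sources used here. All genes with a detection p-value under 0.01 on at least 3 of the 6 arrays were examined, 7175 features out of 25697 probes, of which 6617 were named genes and 558 were probes with no gene name.

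AhR, the aryl hydrocarbon receptor, is a transcription factor of the bHLH-PAS class that resides in the cytoplasm until a ligand such as a dioxin, a tryptophan derivative or a dietary indole binds it. It then enters the nucleus, pairs with ARNT and binds DNA at xenobiotic response elements with the core GCGTG, which raises genes of detoxification such as Cyp1a1 and also its own repressor, Ahrr. Mast cells are granule-filled immune cells that carry the IgE receptor, store histamine, proteases and sulfated proteoglycans, and are known to express AhR.

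Levels are normalised log2 intensities, and differences are AhR null minus control on that log2 scale with a standard error (SE), from a limma fit across all features with culture batch as a block. Adjusted p-values are Benjamini-Hochberg values from this fit over all 7175 features, and a gene is said to have risen or fallen only where that value was under 0.05. The replicates were culture batches, so p-values reflect only the scatter among these cultures, and the number of arrays limits the precision of every value. In such bulk RNA, fewer cells of a type and less RNA per cell cannot be told apart. Mean raw signal ran from 324 to 527 on control arrays and from 523 to 636 on AhR null arrays. The null arrays were 1.48 times as bright by geometric mean, a difference with p = 0.2 in a two-sided exact permutation test that cannot go below 0.1, and 1.96, 1.15 and 1.44 times in batches 1 to 3. Between 8305 and 8826 probes were detected on control arrays and between 9446 and 9733 on AhR null arrays. After normalisation arrays correlated at 0.946 to 0.970 within control, at 0.967 to 0.979 within AhR null and at 0.883 to 0.934 between the groups.

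All 14 mast cell markers on the array were tested, of which 5 rose, 2 fell and 7 did not pass. Fcer1a, one of the latter, whose product binds IgE, stood at 14.998, 15.02 and 14.48 in the control arrays and 15.05, 14.74 and 15.15 in the AhR null arrays. These values overlapped, with a difference of 0.15 (SE 0.16, adjusted p = 0.552). Hdc, which makes histamine, rose by 2.82 (SE 0.13, adjusted p = 7.43e-07), and Mcpt4, Tpsab1, Slc18a2 and Ms4a2 differed by 3.31, 2.09, 0.74 and 0.61, while the serotonin enzyme Tph1 fell by 0.97 (SE 0.18, adjusted p = 0.00442) and the granule protease Cpa3 fell by 0.47 (SE 0.11, adjusted p = 0.0117). Without batch 1 Cpa3 (adjusted p = 0.13), Ms4a2 (0.0714) and Tph1 (0.0798) lost their calls, as did Cpa3 (0.0505) and Ms4a2 (0.053) without the replicate block and Cpa3 (0.149) and Tph1 (0.0933) with median scaling. The genotype could not be read from Ahr itself, because its probe was undetected on all 6 arrays with detection p-values from 0.2895 to 0.7393. Cyp1a1, the best-known AhR target, was also undetected everywhere, with p-values from 0.3296 to 0.9248. Arnt, which encodes the partner of AhR, had 1 probe detected on 1 array of each group and 1 probe detected on none, so it was not tested. Ahrr, the AhR repressor, stood at 8.89, 8.99 and 9.13 in the control arrays and 5.53, 5.42 and 5.14 in the AhR null arrays. It was undetected on the null arrays, with no overlap, and was at least 9.95-fold lower (adjusted p = 4.72e-06). Cyp1b1, of the P450 family, was at least 2.39-fold lower (adjusted p = 0.002), being undetected in the null group, Nqo1, a quinone reductase, fell by 1.82 (SE 0.28, adjusted p = 0.00126) and Tiparp, an ADP-ribosyltransferase, fell by 1.12 (SE 0.28, adjusted p = 0.0167), both missed on 1 null array. The haem-degrading enzyme gene Hmox1, detected on 2 arrays of each group, did not pass, at 0.09 (SE 0.35, adjusted p = 0.878). Tiparp lost its call with the deposited log2 values (-0.23, adjusted p = 0.0654), with median scaling (0.0927) and without batch 1 (0.0855).

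Of the 7175 features, 1496 passed the threshold (20.9%), 783 of them higher (10.9%) and 713 lower (9.94%) in AhR null. Those called with 1 sign in all 3 batches numbered 1491. At least a 2-fold change was found for 385 higher and 259 lower features, at least 4-fold for 86 and 55, and at least 8-fold for 26 and 20. A median SE of 0.21 stood behind these differences. Among the 558 unnamed probes, 125 were called. Detection was confined to 1 group for 251 features, which had to differ to be tested at all, and 115 of the higher and 34 of the lower calls were of this kind. Among calls detected on all 6 arrays, 548 were higher and 629 lower.

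The direction of the many small differences rested on scaling. The share of calls that were higher was 52.3% after quantile normalisation, 93.9% with the deposited median-centred values, 94.4% with median scaling and 43.5% with scaling on probes detected on all 6 arrays. The median over all features was -0.03, 0.30, 0.54 and -0.09 in these settings. Family medians are therefore given relative to the median of all features. Counts under the deposited values and median scaling stand against backgrounds of 45.4% and 40.4% of features higher and 2.93% and 2.4% lower. Batch 1 weighed most on the count, which was 544 without it, 1302 without batch 2 and 1784 without batch 3.

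Gene families differed widely in the share of their measured members that changed, as the plot of family shares displays. Over 50% of measured members were called among the glycosyltransferases, orphan and lipid receptors, RGS proteins and organic ion transporters. The same held for bHLH-PAS and circadian genes, granule proteases and annexins. Between 4.35% and 8% were called among mitochondrial ribosomal proteins, respiratory chain subunits, proteasome subunits, tRNA synthetases, ZFP and ZBTB zinc finger genes and the BCL2 and caspase genes. The share over all features, 20.9%, is the background against which each family is read, and families with few measured members have coarse shares. Members detected in 1 group alone, which could be tested only because the groups differed, gave at most 2 of the calls of any of these families, 1 of 18 among glycosyltransferases, 1 of 19 among histones and 2 of 4 among organic ion transporters.

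**Figure D1:**
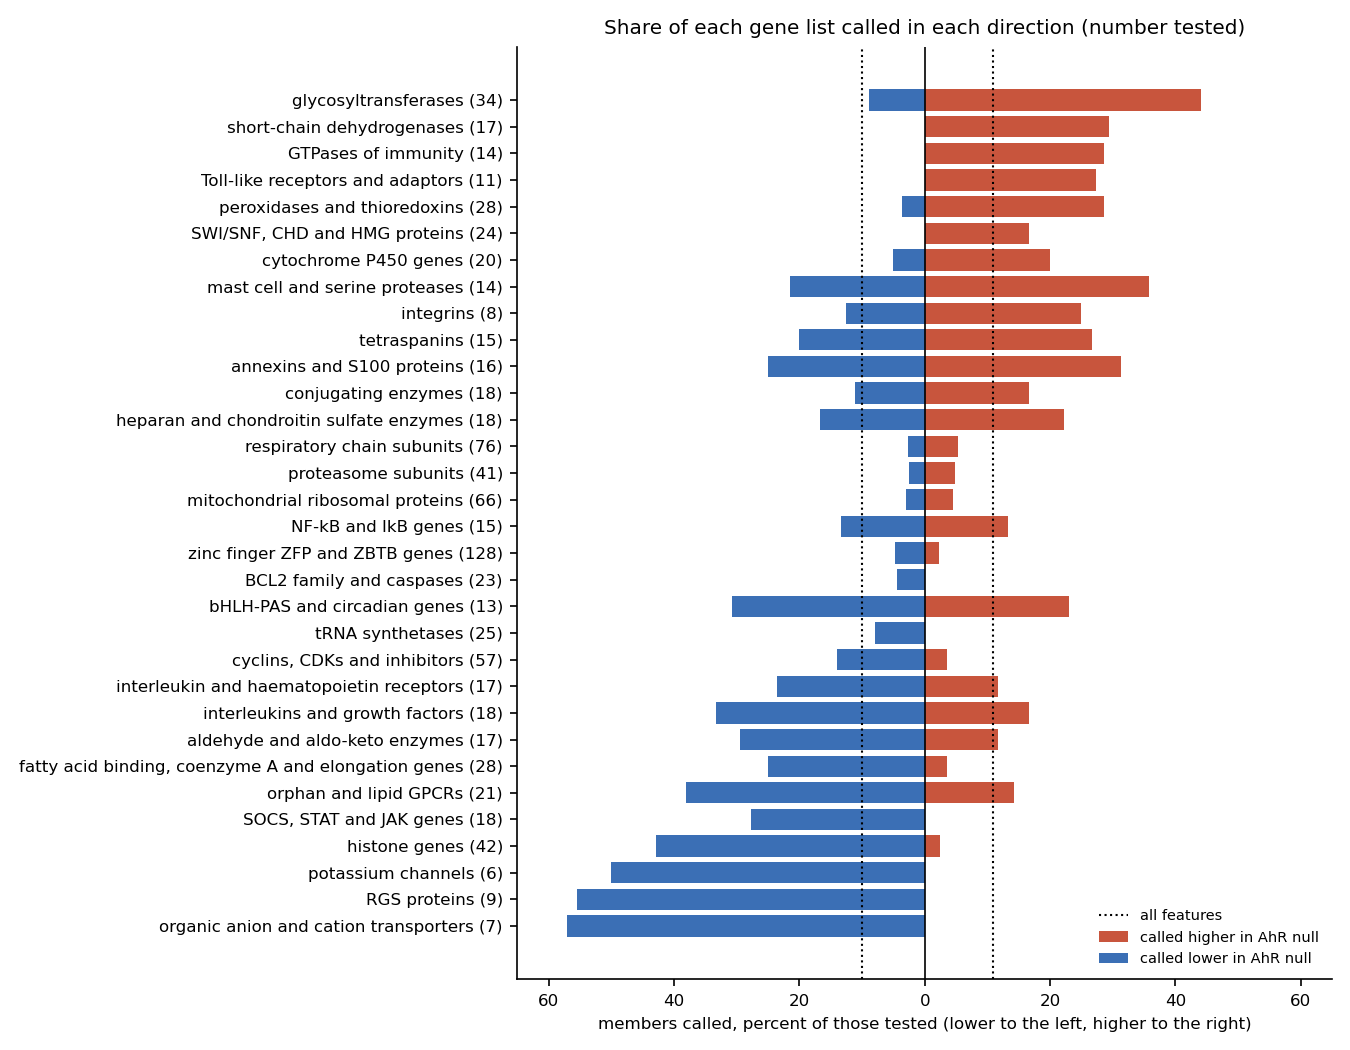
Percent of measured members called higher (to the right) and lower (to the left) in AhR null against control for 32 gene families, with the number tested beside each name; dotted lines mark the shares over all 7175 features, 10.9% higher and 9.94% lower. Glycosyltransferases lie far to the right and histones far to the left. The mitochondrial ribosomal, respiratory chain, proteasome, tRNA synthetase, zinc finger, and BCL2 and caspase lists stay inside the lines. Directions are those after quantile normalisation and shift upward with the deposited values and median scaling.

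The 12 largest falls covered an actin regulator, transporters, a repressor and several surface proteins. Avil, which encodes the actin-bundling protein advillin, stood at 12.21, 11.80 and 12.44 in the control arrays and 5.25, 4.64 and 5.44 in the AhR null arrays. The groups were far apart, the gene was undetected on the 3 null arrays, and it was at least 88.1-fold lower (adjusted p = 4.87e-09). Asphd2, which carries an aspartate beta-hydroxylase domain, stood at 10.96, 10.19 and 11.02 in the control arrays and 5.15, 5.19 and 4.65 in the AhR null arrays. It too was undetected in the null group and was at least 32.8-fold lower (adjusted p = 7.43e-07). Hgfac, the secreted protease that activates hepatocyte growth factor, was detected on all 6 arrays, at 11.24, 10.44 and 10.31 in the control arrays and 5.74, 5.83 and 5.83 in the AhR null arrays. Its control values all lay above its null values and it fell by 4.87 (SE 0.23, adjusted p = 8.08e-07). Hic1, a zinc finger repressor of transcription, stood at 9.46, 8.50 and 10.26 in the control arrays and 4.87, 4.50 and 4.61 in the AhR null arrays. It was undetected in the null group and was at least 13.2-fold lower (adjusted p = 4.84e-06). Cd96, an immunoglobulin-like receptor known from T and NK cells, was at least 10.2-fold lower (adjusted p = 7.93e-06), with levels of 8.69, 8.71 and 9.71 in the control arrays and 4.95, 4.85 and 4.68 in the AhR null arrays.

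The other large falls included carriers and membrane proteins. Slco2b1, an organic anion transporter, stood at 11.43, 11.07 and 9.58 in the control arrays and 6.62, 6.53 and 6.59 in the AhR null arrays. Its null arrays all lay below its control arrays, and it fell by 4.11 (SE 0.30, adjusted p = 1.05e-05). Spns3, a member of the spinster transporter family, fell by 3.97 (SE 0.20, adjusted p = 1.01e-06), from levels of 10.45, 10.32 and 10.62 in the control arrays and 6.06, 6.50 and 6.91 in the AhR null arrays. Mrvi1, a partner of the inositol trisphosphate receptor and target of cGMP kinase, fell by 4.20 (SE 0.38, adjusted p = 4.05e-05) and was missed on 1 null array. Its levels were 10.94, 9.27 and 11.53 in the control arrays and 5.69, 4.60 and 8.85 in the AhR null arrays, the widest scatter among null arrays of these 12 genes (SD 2.21, n = 3). Nxpe4, of the neurexophilin-like family, was at least 9.44-fold lower (adjusted p = 1.72e-05), Lhfp, a relative of the tetraspan membrane proteins, was at least 6.06-fold lower (adjusted p = 2.12e-05), while Shisa2, which modulates maturation of Wnt and FGF receptors, was at least 5.36-fold lower (adjusted p = 1.72e-05). None of these 12 had overlapping groups, and none lost its call in any alternative setting in which it was tested. Of these 12 and the 12 largest rises, Hgfac, Slco2b1, Spns3 and Syn2 were detected on all 6 arrays, and the others have no value under the filter that asks for it.

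**Figure D2:**
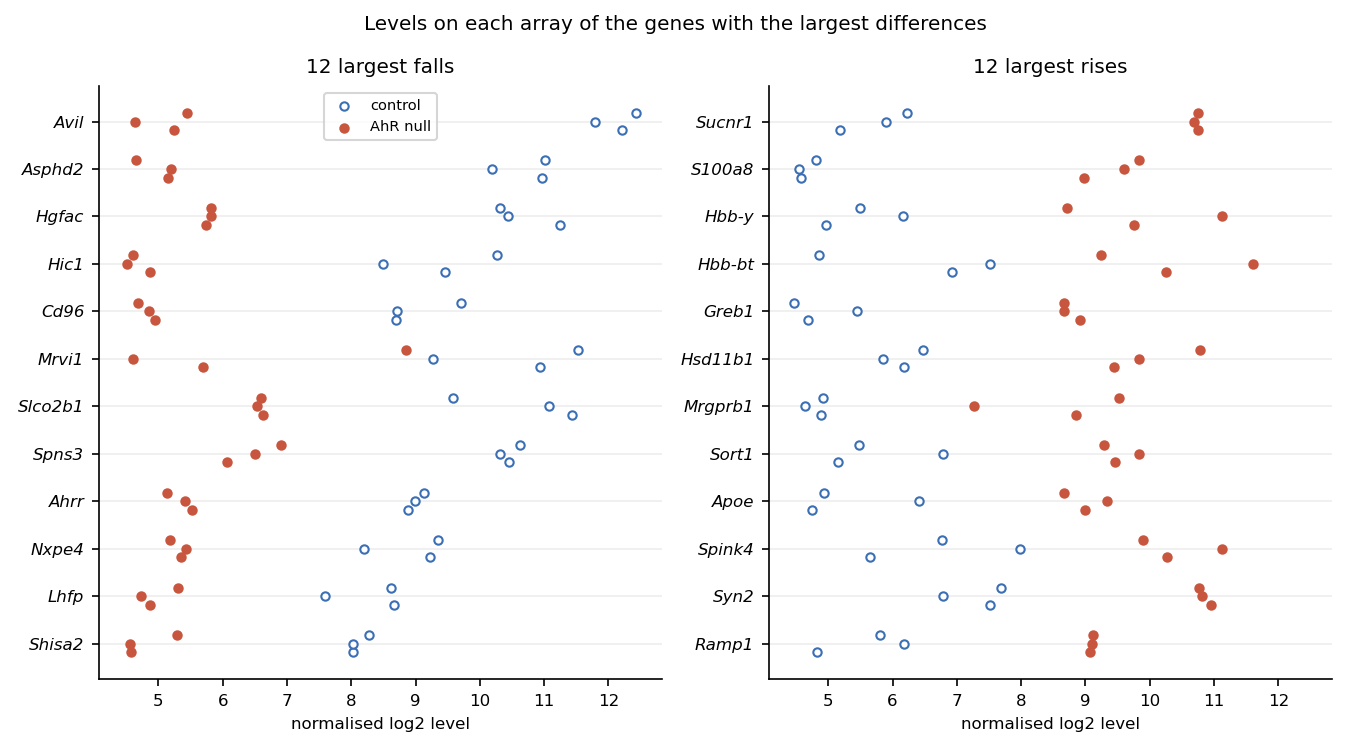
Normalised log2 level of the 12 largest falls and the 12 largest rises on each of the 6 arrays, with open points for control and filled points for AhR null. The groups are apart for every gene; Avil lies between 11.80 and 12.44 in control and between 4.64 and 5.44 in AhR null, and Mrvi1 has the most scattered null arrays.

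Promoter sequences were set beside these falls, since the core GCGTG is the motif AhR is known to bind. The windows, from RefSeq on GRCm38.p6, run from 250 bases before to 50 bases after the annotated start and were searched for GCGTG on both strands, that is for GCGTG and its complement CACGC, and for the longer TNGCGTG. The first 3 windows shown are those of Ahrr (chr13:74292282-74292581, minus strand), Hic1 (chr11:75170206-75170505, minus strand) and Asphd2 (chr5:112395321-112395620, minus strand), which hold 3, 3 and 2 matches, and the fourth is that of Avil (chr10:127000459-127000758, plus strand), the gene with the largest fall, which holds none. Capitals mark the matches.
Ahrr: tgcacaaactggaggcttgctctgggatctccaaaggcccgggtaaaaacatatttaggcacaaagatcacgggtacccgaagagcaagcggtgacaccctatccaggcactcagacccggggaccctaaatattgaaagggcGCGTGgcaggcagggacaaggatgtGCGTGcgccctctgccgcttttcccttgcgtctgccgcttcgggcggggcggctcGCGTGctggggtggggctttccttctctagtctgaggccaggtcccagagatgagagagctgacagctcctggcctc
Hic1: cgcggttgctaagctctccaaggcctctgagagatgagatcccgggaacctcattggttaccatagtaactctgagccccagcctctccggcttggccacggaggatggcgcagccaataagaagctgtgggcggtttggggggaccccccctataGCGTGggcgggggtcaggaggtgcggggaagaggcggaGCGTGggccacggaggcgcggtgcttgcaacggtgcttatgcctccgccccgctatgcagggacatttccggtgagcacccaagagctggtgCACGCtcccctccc
Asphd2: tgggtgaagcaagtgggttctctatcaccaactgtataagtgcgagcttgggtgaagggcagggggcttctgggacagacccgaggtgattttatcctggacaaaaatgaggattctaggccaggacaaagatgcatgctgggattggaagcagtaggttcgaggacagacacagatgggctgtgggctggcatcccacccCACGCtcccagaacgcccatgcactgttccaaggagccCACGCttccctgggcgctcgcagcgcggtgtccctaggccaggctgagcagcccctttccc
Avil: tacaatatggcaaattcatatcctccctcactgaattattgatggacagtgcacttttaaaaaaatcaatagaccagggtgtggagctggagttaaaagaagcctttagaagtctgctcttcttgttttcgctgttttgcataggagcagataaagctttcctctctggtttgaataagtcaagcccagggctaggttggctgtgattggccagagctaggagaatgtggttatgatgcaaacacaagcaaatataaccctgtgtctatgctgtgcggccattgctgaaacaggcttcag

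Matches in the Ahrr window began 107, 82 and 27 bases before the start, and 1 of its 3 was part of TNGCGTG. Across the 12 largest falls, 11 genes had a window, 5 of these held GCGTG (Ahrr, Hic1, Asphd2, Shisa2 and Lhfp) and 2 held TNGCGTG (Ahrr and Hic1). Of the 12 largest rises, 10 had a window, 3 held GCGTG and 0 held TNGCGTG. The motif is common: GCGTG was in 32.4% of all 32851 windows and in 51.2% of those of the genes tested. It was in 50.6% of windows of genes that fell, 45.7% of those that rose and 52.0% of those not called. For TNGCGTG the shares were 6.37%, 7.25% and 8.17%. A match describes the letters of the window and is not a measured binding site.

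The 12 largest rises included receptors, globins and secreted proteins. Sucnr1, the receptor for succinate, stood at 5.18, 5.90 and 6.22 in the control arrays and 10.75, 10.69 and 10.75 in the AhR null arrays. The null arrays lay together above all controls, of which 1 was detected, and the gene rose by 4.96 (SE 0.23, adjusted p = 7.43e-07). Hsd11b1, which reactivates glucocorticoid, stood at 6.18, 5.85 and 6.47 in the control arrays and 9.44, 9.83 and 10.79 in the AhR null arrays. It was detected on 2 control arrays and rose by 3.85 (SE 0.23, adjusted p = 2.69e-06). Mrgprb1, a Mas-related receptor, stood at 4.89, 4.64 and 4.91 in the control arrays and 8.85, 7.27 and 9.51 in the AhR null arrays. It was undetected in control and was at least 5.62-fold higher (adjusted p = 4.96e-05). Sort1, which encodes the sorting receptor sortilin, rose by 3.73 (SE 0.26, adjusted p = 7.93e-06) and was seen on 1 control array. Ramp1, a subunit of the receptor for calcitonin gene-related peptide, rose by 3.49 (SE 0.28, adjusted p = 1.58e-05), also with 1 control array detected. Syn2, a synapsin known from synaptic vesicles, was detected on all 6 arrays, at 7.52, 6.79 and 7.68 in the control arrays and 10.96, 10.82 and 10.77 in the AhR null arrays. It rose by 3.52 (SE 0.20, adjusted p = 1.77e-06), with no overlap. Spink4, an inhibitor of serine proteases, rose by 3.63 (SE 0.28, adjusted p = 1.3e-05) and Greb1, known as an oestrogen-responsive gene, was at least 6.48-fold higher (adjusted p = 9.32e-06).

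Among the same 12, S100a8, of the calcium-binding S100 class, was at least 10.7-fold higher (adjusted p = 1.01e-06), being undetected in control. Apoe, a lipid carrier abundant in macrophages, rose by 3.64 (SE 0.28, adjusted p = 1.3e-05) and was seen on 1 control array. Of the beta-like globins, Hbb-y rose by 4.32 (SE 0.31, adjusted p = 1.01e-05) and Hbb-bt rose by 3.94 (SE 0.23, adjusted p = 1.77e-06), detected on 1 and 2 control arrays; their sequences are alike, so a probe of either may read both. Hbb-b2, a further beta-globin gene, was undetected in control and at least 2.42-fold higher (adjusted p = 0.000231). Hba-a1, the alpha-globin gene on the same arrays, differed by -0.11 (SE 0.48, adjusted p = 0.898) and was not called. Its batch differences were -0.12, 1.52 and -1.72, so its direction could not be told. Klf1, the red cell transcription factor and a marker on the red cell and megakaryocyte list, was undetected in control and, in null, at least 1.77-fold higher (adjusted p = 0.00416). None of the 12 rises lost its call in any setting in which it was tested. How far other cells took part in S100a8 and Apoe was not tested; the marker sums of such cells are given with the cell type lists.

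Of the 32 families described, glycosyltransferases had the most rises. These enzymes build the sugar chains of proteins and lipids in the Golgi. The list, made by name, also holds mannosidases, which trim such chains, and Man1a, Man1a2 and Man2a1 are among its rises. On this list, 34 of 77 genes on the array were tested, of which 15 rose, 3 fell and 16 did not pass (52.9% called), against 10.9% higher and 9.94% lower over all features. St3gal5, the GM3 synthase that starts the ganglioside pathway, stood at 5.48, 6.55 and 6.32 in the control arrays and 8.91, 9.37 and 8.91 in the AhR null arrays. It was detected on 2 of 3 controls, did not overlap and rose by 2.94 (SE 0.23, adjusted p = 1.58e-05). St3gal1, which adds sialic acid to mucin-type chains, stood at 5.17, 6.79 and 6.13 in the control arrays and 8.57, 8.68 and 7.78 in the AhR null arrays and rose by 2.31 (SE 0.33, adjusted p = 0.000784), with 1 control array detected. Galnt3, which starts mucin-type chains by adding N-acetylgalactosamine, stood at 7.56, 9.39 and 8.46 in the control arrays and 10.02, 10.44 and 9.83 in the AhR null arrays. Its groups were separate and it rose by 1.62 (SE 0.24, adjusted p = 0.00121). B4galt4, a galactosyltransferase undetected in control, was at least 1.61-fold higher (adjusted p = 0.00315).

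The other called members, named after their values were seen, were smaller in size. The mannosidase Man1a rose by 1.14 (SE 0.23, adjusted p = 0.00635), the polysialyltransferase St8sia4 rose by 1.12 (SE 0.14, adjusted p = 0.000398) and the core fucosyltransferase Fut8 rose by 1.08 (SE 0.15, adjusted p = 0.000671). Man1a2, Galnt18, Fut4, Galnt10, Galnt1, St3gal4, St3gal2 and Man2a1 rose by 0.57 to 1.05. The 3 falls were Mgat4b, which branches N-linked glycans (-0.84, SE 0.16, adjusted p = 0.00521), St6gal1, the alpha-2,6 sialyltransferase (-0.78, SE 0.20, adjusted p = 0.0194), and B3gnt8, which extends lactosamine chains (-0.70, SE 0.19, adjusted p = 0.0258). The alpha-2,3 sialyltransferases St3gal1, St3gal2, St3gal4 and St3gal5 thus rose where the alpha-2,6 enzyme St6gal1 fell, although St6gal1 was at -0.13 (adjusted p = 0.515) with the deposited values and -0.14 (0.702) with median scaling. St3gal3, of the same alpha-2,3 class, did not pass, at -0.52 (SE 0.18, adjusted p = 0.0647). The family's median difference was 0.43 relative to that of all features (0.23 with the deposited values, 0.41 with median scaling, 0.41 with detected-probe scaling, and 0.51, 0.45 and 0.44 without batch 1, 2 and 3). Its rises and falls numbered 22 and 0 with the deposited log2 values, 21 and 0 with median scaling and 7 and 0 without batch 1. The calls of Mgat4b and B3gnt8 were also lost with those 2 scalings (adjusted p from 0.242 to 0.872), those of Man1a (0.0804), Mgat4b (0.0625), St6gal1 (0.0749) and B3gnt8 (0.12) without batch 1, those of St6gal1 (0.138) and B3gnt8 (0.153) without batch 2, and that of B3gnt8 without the replicate block (0.0522).

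The enzymes of heparan and chondroitin sulfate, the chains that hold proteases and histamine in mast cell granules, were mixed. In this family, 18 of 54 genes on the array were tested, of which 4 rose, 3 fell and 11 did not pass (38.9% called). Hs3st1, the 3-O-sulfotransferase known for making the antithrombin-binding site of heparin, stood at 12.62, 12.28 and 12.42 in the control arrays and 10.93, 10.42 and 10.78 in the AhR null arrays. The groups were apart and it fell by 1.73 (SE 0.13, adjusted p = 1.3e-05). Chsy1, a chondroitin synthase, fell by 1.08 (SE 0.15, adjusted p = 0.000688), while the chondroitin 4-O-sulfotransferase Chst11 rose by 1.06 (SE 0.19, adjusted p = 0.00347) and Chst8, which sulfates N-acetylgalactosamine, rose by 0.93 (SE 0.26, adjusted p = 0.0295). The median was -0.05 relative to that of all features (0.00 with the deposited values, -0.11 with median scaling, -0.11 with detected-probe scaling, and -0.03, -0.05 and 0.02 without batch 1, 2 and 3), so it had no steady sign. Chst8 lost its call without the replicate block (adjusted p = 0.08) and without batch 1 (0.235), and rises and falls numbered 7 and 2 with the deposited log2 values, 7 and 2 with median scaling, 2 and 2 without batch 1 and 4 and 5 without batch 3.

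Of the same 32 families, histone genes had the most falls. Replication-dependent histones package new DNA and are transcribed in S phase. Here 42 of 67 genes on the array were tested, of which 1 rose, 18 fell and 23 did not pass (45.2% called). H1f5, a linker histone, stood at 7.29, 7.50 and 7.42 in the control arrays and 5.56, 6.12 and 6.27 in the AhR null arrays. Its groups did not overlap and it fell by 1.42 (SE 0.26, adjusted p = 0.00347), with 2 of 3 null arrays detected. The core histone genes H4c3 (-1.21, SE 0.27, adjusted p = 0.0107), H4c12 (-1.15, SE 0.27, adjusted p = 0.014) and H4c18 (-1.08, SE 0.30, adjusted p = 0.0299) fell, with detection on 2, 3 and 1 null arrays. The other falls ran from -1.06 for H3c4 to -0.44 for the variant H2az1, and included copies of H2A, H2B, H3 and H4. The single rise was H2bc4, chosen after its value was seen, at 0.83 (SE 0.19, adjusted p = 0.0109). Histone genes are near-identical copies, so probes may read more than 1 and the number of separate genes that fell is uncertain.

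The histone median was -0.42 relative to that of all features (-0.28 with the deposited values, -0.44 with median scaling, -0.44 with detected-probe scaling, and -0.59, -0.41 and -0.33 without batch 1, 2 and 3), so histones stood below other genes in each scaling. Their own median difference, not set against other genes, was -0.46 after quantile normalisation but 0.02 with the deposited values and 0.10 with median scaling, where the direction turns. The counts of rises and falls became 7 and 3 with the deposited log2 values, 5 and 1 with median scaling, 0 and 5 without batch 1 and 2 and 11 without batch 2. H4c12, H4c18 and H4c3 lost their calls without batch 1 (adjusted p = 0.075, 0.116 and 0.0952), and H4c12 (0.066 and 0.117) and H4c18 (0.0977 and 0.0987) with the deposited values and median scaling, H4c3 with median scaling (0.0564), and H4c18 without batch 3 (0.0868) and with no filter (0.0549). H2bc4 lost its call without batch 1 (0.156).

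**Figure D3:**
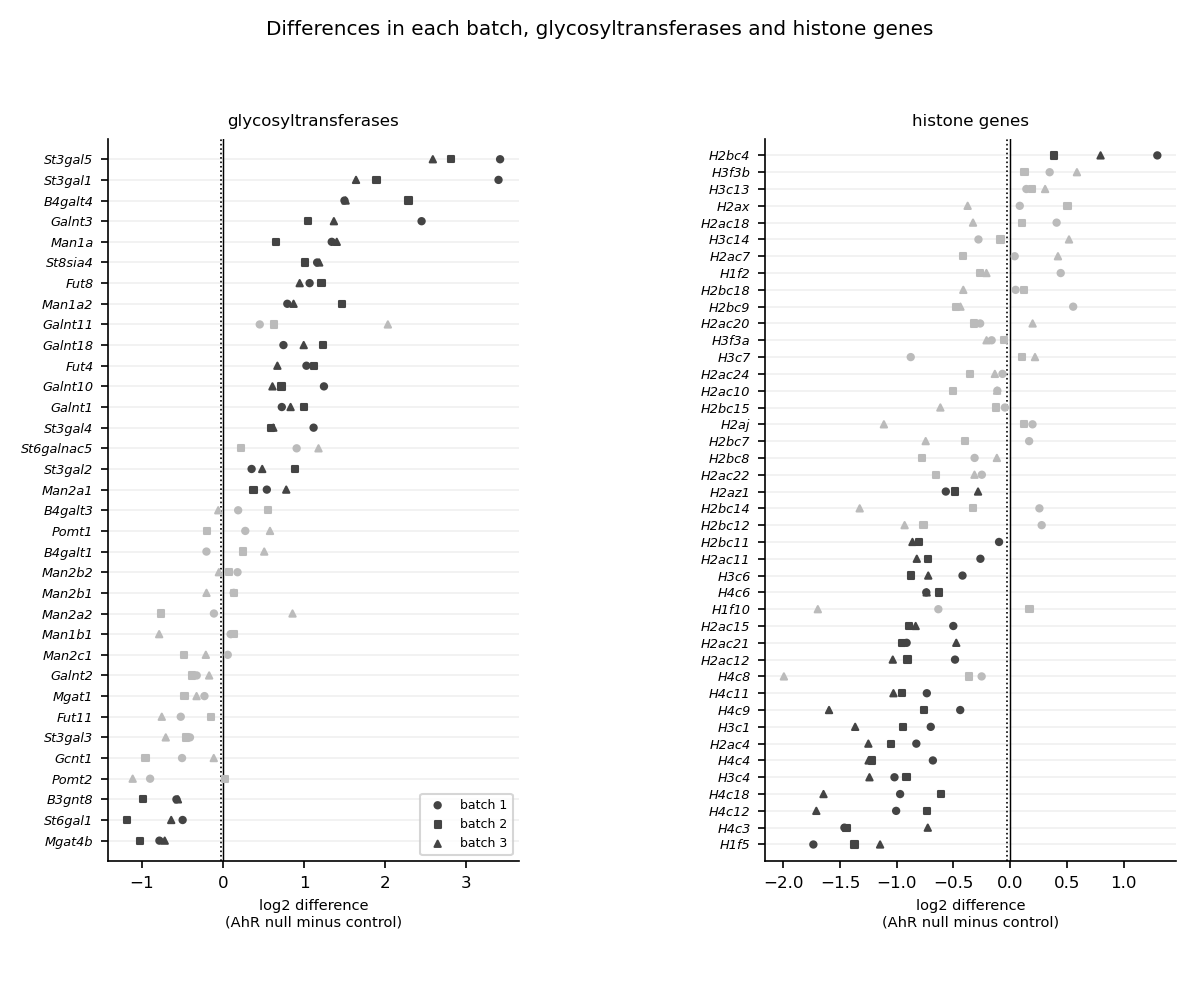
Difference in log2 level, AhR null minus control, of each measured glycosyltransferase and histone gene in batches 1 to 3 (symbols); dark points belong to genes that passed the threshold, and the dotted line is the median of all features, -0.03. Of the called genes 15 on the glycosyltransferase list, mannosidases included, lie to the right of the line and 18 histones to its left. With the deposited values and median scaling the points move to the right, and the histone median then lies at 0.02 and 0.10.

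The chromatin remodelling list and the cyclin list were called at shares near the 20.9% of all features after quantile normalisation. The side on which they lay changed with the setting. Of the remodelling list 25% was called against 22% of all features with cyclic loess, and 75% against 48.3% with the deposited values. Of the cyclin list 24.6% was called against 18% without batch 2. Of the SWI/SNF, CHD and HMG genes, 24 of 37 genes on the array were tested, of which 4 rose, 0 fell and 20 did not pass (16.7% called). Hmgn1, a nucleosome-binding protein, stood at 7.81, 7.76 and 6.73 in the control arrays and 10.90, 11.01 and 10.31 in the AhR null arrays. The groups were apart and it rose by 3.31 (SE 0.18, adjusted p = 1.25e-06). Smarca1, an ISWI-class remodelling ATPase, rose by 2.45 (SE 0.25, adjusted p = 9.26e-05), Hmgn3, another nucleosome-binding protein, rose by 1.36 (SE 0.21, adjusted p = 0.00158), and the DNA-binding protein Arid3a rose by 0.89 (SE 0.23, adjusted p = 0.0218). Of the cyclins, CDKs and inhibitors, 57 of 87 genes on the array were tested, of which 2 rose, 8 fell and 47 did not pass (17.5% called). The falls were led by Ccnd2, a D-type cyclin of the G1 phase (-1.42, SE 0.31, adjusted p = 0.00931), the cell cycle inhibitor Cdkn1a (-1.16, SE 0.15, adjusted p = 0.000429) and Ccnl1, a cyclin linked to splicing (-0.84, SE 0.15, adjusted p = 0.00335). Cdkn2a, which encodes the INK4a and ARF tumour suppressors, rose by 1.34 (SE 0.37, adjusted p = 0.0272), with overlapping groups at 6.99, 9.25 and 6.58 in the control arrays and 9.06, 9.12 and 8.64 in the AhR null arrays. In the cyclin list rises and falls numbered 17 and 2 with the deposited log2 values, 13 and 2 with median scaling, 0 and 4 without the replicate block, 0 and 1 without batch 1, 5 and 9 without batch 2 and 4 and 8 without batch 3, and in the remodelling list 18 and 0 with the deposited log2 values and 17 and 0 with median scaling. Without batch 1 Ccnd2 (adjusted p = 0.0511), Ccnl1 (0.0527), Cdkn2a (0.209) and Arid3a (0.129) lost their calls, as did Arid3a without batch 2 (0.113), Cdkn2a without the replicate block (0.115), Ccnd2 (0.0894) and Cdkn2a (0.0955) with robust variances, and Ccnl1 with the deposited values (0.154) and median scaling (0.381).

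After quantile normalisation, orphan and lipid receptors coupled to G proteins, and RGS proteins, were called more often than the 20.9% of all features. Related lists varied. Amine, purine and peptide receptors (31.2% called) and adhesion receptors (40%) lay above that share. Heterotrimeric G proteins (17.6%) and adenylyl cyclases and phosphodiesterases (14.3%) lay below it. Of the orphan and lipid receptors, 21 of 86 genes on the array were tested, of which 3 rose, 8 fell and 10 did not pass (52.4% called). The orphan receptor Gpr176 stood at 11.15, 10.58 and 11.81 in the control arrays and 7.72, 8.08 and 8.67 in the AhR null arrays. It was detected on all 6 arrays with no overlap and fell by 3.02 (SE 0.19, adjusted p = 4.19e-06). Gpr146 stood at 9.89, 9.01 and 9.54 in the control arrays and 7.27, 6.86 and 6.87 in the AhR null arrays and fell by 2.48 (SE 0.20, adjusted p = 1.72e-05), and Gpr141 fell by 1.97 (SE 0.25, adjusted p = 0.000354), again with separate groups. Named after their values were seen, Lpar1, a receptor for lysophosphatidic acid, differed by -1.65 (SE 0.24, adjusted p = 0.000834), Ltb4r1, the receptor for leukotriene B4, by -1.17 (SE 0.23, adjusted p = 0.00498), and Ffar2, a receptor for short-chain fatty acids, by 1.22 (SE 0.20, adjusted p = 0.00192). Besides Sucnr1 and Ffar2, the rise in the list was Gpr137b, at 1.43. The median of the list was -0.37 relative to that of all features (-0.28 with the deposited values, -0.43 with median scaling, -0.43 with detected-probe scaling, and -0.28, -0.21 and -0.45 without batch 1, 2 and 3). Across settings, rises and falls came to 7 and 4 with the deposited log2 values, 5 and 4 with median scaling, 2 and 5 without the replicate block, 2 and 5 without batch 1 and 3 and 5 without batch 2. Ltb4r1 lost its call with the deposited values (-0.46, adjusted p = 0.0527) and median scaling (-0.54, 0.106), and Ffar2 without the replicate block (0.0971).

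RGS proteins speed the switch-off of G proteins. Among them, 9 of 20 genes on the array were tested, of which 0 rose, 5 fell and 4 did not pass (55.6% called). Rgs9, known from photoreceptors and striatum, stood at 9.10, 9.0 and 9.17 in the control arrays and 7.01, 7.14 and 7.42 in the AhR null arrays. The groups were apart and it fell by 1.90 (SE 0.19, adjusted p = 8.95e-05). Rgs12 fell by 1.52 (SE 0.23, adjusted p = 0.00131), Rgs19 fell by 1.11 (SE 0.27, adjusted p = 0.0151) and Rgs10 fell by 0.85 (SE 0.17, adjusted p = 0.00537), and the fall outside the naming rule was Rgs1, at -0.47. The median of these genes was -0.44 relative to that of all features (-0.37 with the deposited values, -0.56 with median scaling, -0.56 with detected-probe scaling, and -0.48, -0.50 and -0.57 without batch 1, 2 and 3). Rises and falls numbered 2 and 2 with the deposited log2 values, 1 and 2 with median scaling and 0 and 3 without batch 1. Rgs10 lost its call with the deposited values (adjusted p = 0.141), with median scaling (0.297) and without batch 1 (0.0728), and Rgs19 with the first 2 of these (0.0562 and 0.092).

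Potassium channels and organic ion transporters held falls and 0 rises after quantile normalisation. Of the potassium channel genes, 6 of 80 genes on the array were tested, of which 0 rose, 3 fell and 3 did not pass (50% called). Kcnn4, the calcium-activated channel known to sustain calcium entry in mast cells, stood at 8.43, 8.74 and 8.70 in the control arrays and 6.87, 6.33 and 6.52 in the AhR null arrays. The groups did not overlap and it fell by 2.05 (SE 0.23, adjusted p = 0.000185). Kcnk5, a channel of the family with a pair of pore domains, fell by 0.95 (SE 0.27, adjusted p = 0.0325), and Kcnab2, an accessory beta subunit, fell by 0.89 (SE 0.16, adjusted p = 0.00293). Kcnk5 and Kcnab2 lost their calls with the deposited values (adjusted p = 0.222 and 0.134) and with median scaling (0.366 and 0.345), which left 1 fall, and Kcnk5 also without the replicate block (0.0782), batch 1 (0.116) or batch 3 (0.0831). Of the organic anion and cation transporters, 7 of 31 genes on the array were tested, of which 0 rose, 4 fell and 3 did not pass (57.1% called). The list, made by name, also holds Spns3 of the spinster transporter family, which is among the 4 falls. Beside Slco2b1 and Spns3, Slco4a1, a carrier of thyroid hormone and other organic anions, was at least 3.31-fold lower (adjusted p = 0.000253), while Slc22a23, an orphan carrier, was at least 1.65-fold lower (adjusted p = 0.0105), both undetected in the null group. The median was -1.32 relative to that of all features (-0.61 with the deposited values, -1.62 with median scaling, -1.62 with detected-probe scaling, and -1.39, -1.22 and -1.35 without batch 1, 2 and 3), and it was -0.72 in place of -1.35 on the log2 scale once undetected genes stood at their bound. Rises and falls numbered 1 and 4 both with the deposited values and with median scaling. Slc22a23 lost its call without batch 1 (0.057).

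**Figure D4:**
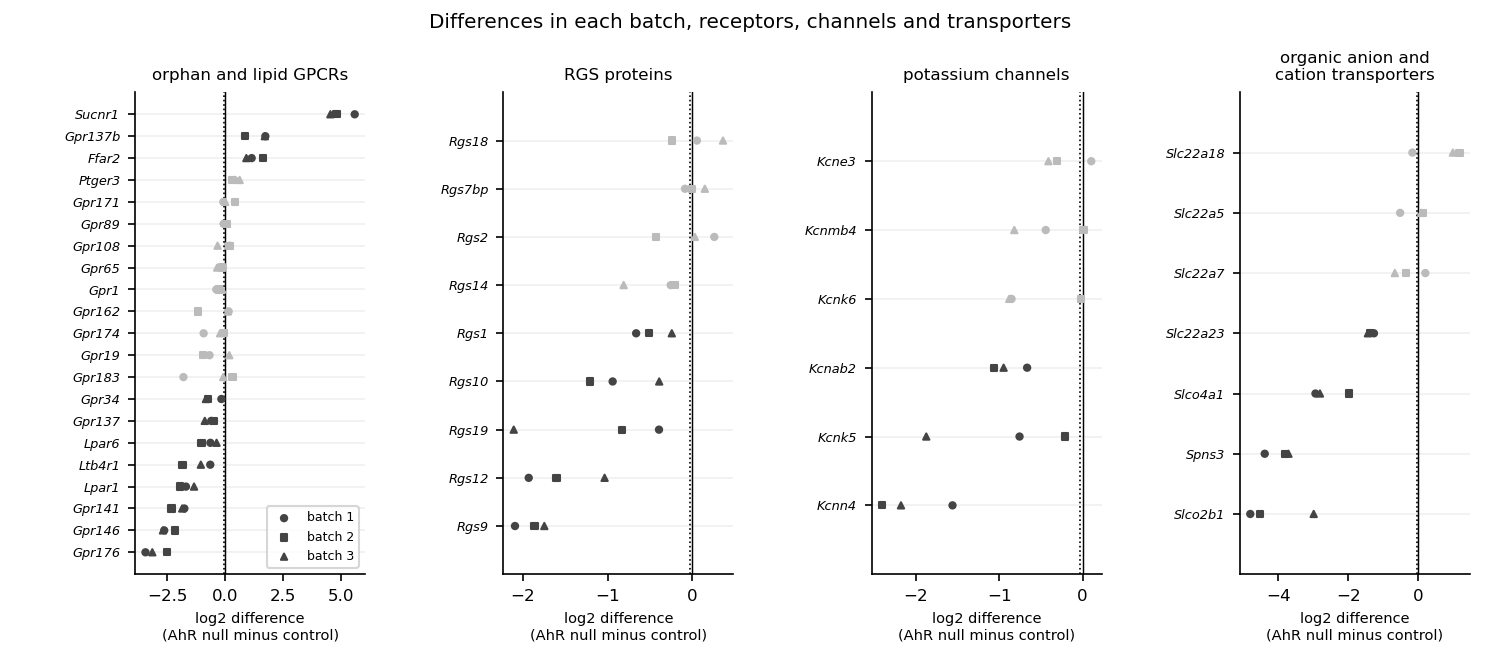
Difference in log2 level, AhR null minus control, of measured orphan and lipid receptors, RGS proteins, potassium channels and organic ion transporters in batches 1 to 3 (symbols), with dark points for genes that passed the threshold. Sucnr1 stands far to the right, at 4.96 over the batches, and Slco2b1 far to the left, at -4.11, while the RGS, channel and transporter calls all lie below 0; with the deposited values and median scaling 2 and 1 RGS genes, and 1 and 1 organic ion transporters, were called higher.

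Enzymes that handle aldehydes, steroids and lipids changed in both directions. Of the aldehyde and aldo-keto enzymes, 17 of 38 genes on the array were tested, of which 2 rose, 5 fell and 10 did not pass (41.2% called). Aldh3a1, a dehydrogenase of the AhR battery, stood at 8.74, 9.26 and 8.70 in the control arrays and 5.82, 5.88 and 6.74 in the AhR null arrays. It fell by 2.75 (SE 0.28, adjusted p = 8.15e-05) without overlap, and Aldh3a2, a close relative that oxidises long-chain fatty aldehydes, stood at 11.06, 10.74 and 11.54 in the control arrays and 9.56, 8.94 and 9.62 in the AhR null arrays and fell by 1.74 (SE 0.15, adjusted p = 3.48e-05). Aldh5a1, succinate semialdehyde dehydrogenase, fell by 1.14 (SE 0.31, adjusted p = 0.0247) with 1 null array detected, and Akr1c18, which inactivates progesterone, was at least 1.27-fold higher (adjusted p = 0.0272), being undetected in control. The median was 0.11 relative to that of all features (0.01 with the deposited values, -0.02 with median scaling, -0.02 with detected-probe scaling, and 0.18, 0.23 and -0.05 without batch 1, 2 and 3), a sign that turned between scalings. The counts of rises and falls became 7 and 3 with the deposited log2 values, 7 and 3 with median scaling, 0 and 5 with detected-probe scaling, 0 and 2 without batch 1 and 2 and 3 without batch 2. Aldh5a1 lost its call without batch 1 (adjusted p = 0.0979) and batch 2 (0.141), and Akr1c18 without batch 1 (0.22), with all 9 arrays (0.105) and with detected-probe scaling (0.06).

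The short-chain dehydrogenases, many of which act on steroids and carbonyls, held rises and 0 falls. In this group, 17 of 48 genes on the array were tested, of which 5 rose, 0 fell and 12 did not pass (29.4% called, against 20.9% of all features). Among genes detected on all 6 arrays the share was below that of all features: 2 of 14 rose (14.3% called), against 20.9%. The median was then 0.25 relative to that of all features. After Hsd11b1, the carbonyl reductase Cbr1 rose by 1.55 (SE 0.35, adjusted p = 0.0115) with 1 control array detected. Hsd3b2, a steroid dehydrogenase, stood at 8.87, 9.96 and 8.84 in the control arrays and 10.12, 10.65 and 10.96 in the AhR null arrays. It rose by 1.35 (SE 0.24, adjusted p = 0.00282), and the mitochondrial enzyme Hsd17b10 rose by 1.32 (SE 0.29, adjusted p = 0.00968) with 2 control arrays detected. The smallest rise was Dhrs7, named after its value was seen, at 0.55. The median was 0.41 relative to that of all features (0.31 with the deposited values, 0.43 with median scaling, 0.43 with detected-probe scaling, and 0.41, 0.48 and 0.13 without batch 1, 2 and 3). Across settings, rises and falls came to 12 and 0 with the deposited log2 values, 11 and 0 with median scaling and 3 and 0 without batch 1, and Hsd17b10 lost its call without batch 1 (adjusted p = 0.108).

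Genes of fatty acid handling mostly fell where they changed. Of the fatty acid binding, coenzyme A and elongation genes, 28 of 58 genes on the array were tested, of which 1 rose, 7 fell and 20 did not pass (28.6% called). Acot11, an acyl-CoA thioesterase, stood at 9.51, 9.26 and 9.80 in the control arrays and 6.83, 5.95 and 7.27 in the AhR null arrays. Its groups were apart and it fell by 2.84 (SE 0.22, adjusted p = 1.3e-05). The stearoyl-CoA desaturase genes moved apart: Scd1 fell by 1.65 (SE 0.18, adjusted p = 0.000126) and Scd2 rose by 1.85 (SE 0.35, adjusted p = 0.00429), the latter with 1 control array detected. Scd1 levels were 9.87, 9.55 and 9.89 in the control arrays and 8.33, 7.62 and 8.40 in the AhR null arrays, and Scd2 levels were 4.70, 6.01 and 5.57 in the control arrays and 7.55, 7.13 and 7.14 in the AhR null arrays. Neither desaturase had overlapping groups. Acadl, the long-chain acyl-CoA dehydrogenase, fell by 0.87 (SE 0.26, adjusted p = 0.0386), with overlapping groups. The median was -0.20 relative to that of all features (-0.12 with the deposited values, -0.17 with median scaling, -0.17 with detected-probe scaling, and -0.20, -0.26 and -0.17 without batch 1, 2 and 3). Rises and falls numbered 9 and 2 with the deposited log2 values, 8 and 2 with median scaling, 1 and 3 without the replicate block and 1 and 2 without batch 1. Acadl lost its call with the deposited values (adjusted p = 0.345), with median scaling (0.508), without the replicate block (0.0772) and without batch 1 (0.31).

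Conjugating enzymes and cytochrome P450 genes, the classes best known as AhR targets, were near the background. Of the conjugating enzymes, 18 of 61 genes on the array were tested, of which 3 rose, 2 fell and 13 did not pass (27.8% called). The glutathione transferase genes Gsta3 (at least 2.91-fold higher, adjusted p = 7.99e-05) and Gstt2 (at least 1.31-fold higher, adjusted p = 0.013) were undetected in control, and Gsto1, named after its value was seen, rose by 1.24. The falls were Nqo1 and Sult1a1, a phenol sulfotransferase that fell by 1.70 (SE 0.23, adjusted p = 0.000653) with overlapping groups and 2 null arrays detected. Of the P450 list, which also holds cytochrome b5 and b561 genes, 20 of 87 genes on the array were tested, of which 4 rose, 1 fell and 15 did not pass (25% called). Its fall was Cyp1b1, and its leading rise was Cyp4f15, of a class that oxidises fatty acids, which was at least 1.32-fold higher (adjusted p = 0.00537), being undetected in control. The counts of rises and falls became 11 and 2 with the deposited log2 values and 11 and 2 with median scaling for the conjugating list and 12 and 1 with the deposited log2 values, 10 and 1 with median scaling and 1 and 1 without batch 1 for the P450 list. Gstt2 lost its call without batch 1 (adjusted p = 0.111).

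On the cell surface, tetraspanins, small membrane proteins that gather integrins and receptors into clusters, changed in both directions. In this list, 15 of 27 genes on the array were tested, of which 4 rose, 3 fell and 8 did not pass (46.7% called). Cd9 stood at 10.76, 10.64 and 11.06 in the control arrays and 8.63, 7.66 and 10.14 in the AhR null arrays. It fell by 2.01 (SE 0.30, adjusted p = 0.00114), and Cd81, its partner in many complexes, stood at 11.51, 11.23 and 12.20 in the control arrays and 13.81, 13.79 and 13.96 in the AhR null arrays and rose by 2.21 (SE 0.16, adjusted p = 9.11e-06), each without overlap. Tspan8 was at least 3.86-fold lower (adjusted p = 7.11e-05), while Tspan32 rose by 1.88 (SE 0.20, adjusted p = 9.55e-05). Across settings, rises and falls came to 10 and 2 with the deposited log2 values, 9 and 2 with median scaling and 2 and 2 without batch 1. Of the integrins, 8 of 23 genes on the array were tested, of which 2 rose, 1 fell and 5 did not pass (37.5% called). Itgb7, the beta chain that guides mast cell progenitors to the gut, stood at 12.11, 11.72 and 12.18 in the control arrays and 10.15, 9.20 and 10.49 in the AhR null arrays. Its groups were apart and it fell by 2.06 (SE 0.17, adjusted p = 2.16e-05). Itga6, a laminin receptor chain undetected in control, was at least 1.25-fold higher (adjusted p = 0.00782), while Itgb2, the common leukocyte chain, rose by 1.63 (SE 0.32, adjusted p = 0.0056). Without batch 1 Itga6 (adjusted p = 0.0754) and Itgb2 (0.052) lost their calls. Galectins, lectins that bind galactose on cell surfaces, moved apart as well: Lgals3 fell by 1.84 (SE 0.35, adjusted p = 0.00453), a call lost with robust variances (0.148), and Lgals1 rose by 0.77 (SE 0.14, adjusted p = 0.00395).

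Among secreted factors and their receptors, growth factor and interleukin genes were called more often than all features. Of the interleukins and growth factors, 18 of 74 genes on the array were tested, of which 3 rose, 6 fell and 9 did not pass (50% called). Pdgfa, a platelet-derived growth factor chain, stood at 9.13, 9.62 and 8.38 in the control arrays and 6.26, 5.98 and 6.74 in the AhR null arrays. The groups did not overlap and it fell by 2.71 (SE 0.33, adjusted p = 0.000267). Csf1, the macrophage growth factor, fell by 1.82 (SE 0.26, adjusted p = 0.000915) with 1 null array detected. Hgf, hepatocyte growth factor, stood at 5.89, 7.07 and 5.62 in the control arrays and 8.28, 8.45 and 7.62 in the AhR null arrays. It rose by 1.93 (SE 0.26, adjusted p = 0.000563) with 1 control array detected, in the same null arrays in which its activator Hgfac fell. Il1b, an inflammatory interleukin, rose by 1.69 (SE 0.29, adjusted p = 0.00251). The median was -0.44 relative to that of all features (-0.26 with the deposited values, -0.41 with median scaling, -0.41 with detected-probe scaling, and -0.36, -0.47 and -0.08 without batch 1, 2 and 3), and rises and falls numbered 8 and 4 with the deposited log2 values and 6 and 3 with median scaling. Of the interleukin and haematopoietin receptors, 17 of 48 genes on the array were tested, of which 2 rose, 4 fell and 11 did not pass (35.3% called). Il1r2, the decoy receptor for interleukin-1, stood at 9.04, 6.89 and 7.99 in the control arrays and 4.69, 4.75 and 4.88 in the AhR null arrays. It was undetected in the null group and was at least 4.87-fold lower (adjusted p = 0.000256). Ifngr1, a chain of the interferon-gamma receptor, rose by 1.59 (SE 0.33, adjusted p = 0.00697) with 2 control arrays detected, Il18r1 rose by 1.25 (SE 0.22, adjusted p = 0.00269) and Il10ra fell by 1.21 (SE 0.24, adjusted p = 0.00635). Il10ra lost its call with median scaling (adjusted p = 0.0534), where 7 receptors rose and 2 fell.

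Inside the cell, genes of cytokine signalling fell where they changed. On this list, 18 of 22 genes on the array were tested, of which 0 rose, 5 fell and 13 did not pass (27.8% called). Stat3, a transcription factor downstream of many cytokines, fell by 0.98 (SE 0.16, adjusted p = 0.00176). The feedback inhibitors Socs1 (-1.10, SE 0.27, adjusted p = 0.0151), Socs4 (-0.72, SE 0.22, adjusted p = 0.0416) and Socs5 (-0.72, SE 0.18, adjusted p = 0.0191) fell, with overlapping groups for Socs1 and Socs5, and the fifth was Stat4, at -0.66, named after its value was seen. The direction of this list turned with scaling, as rises and falls numbered 7 and 0 with the deposited log2 values, 6 and 0 with median scaling, 0 and 2 without the replicate block, 0 and 1 without batch 1 and 2 and 5 with cyclic loess. Stat3 (adjusted p = 0.0706 and 0.238), Socs1 (0.083 and 0.19), Socs4 (0.693 and 0.86) and Socs5 (0.661 and 0.834) lost their calls with the deposited values and median scaling. The Socs genes did so without the replicate block (0.0783, 0.0855 and 0.126) and without batch 1 (0.129, 0.214 and 0.108) too, Socs4 also without batch 3 (0.0864) and with no filter (0.0691), and Socs5 without batch 2 (0.0685).

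Genes of the NF-kB pathway changed in both directions. In this family, 15 of 18 genes on the array were tested, of which 2 rose, 2 fell and 11 did not pass (26.7% called). Nfkbia, the main inhibitor, stood at 6.29, 5.48 and 6.25 in the control arrays and 7.63, 8.20 and 8.30 in the AhR null arrays. It rose by 2.04 (SE 0.29, adjusted p = 0.000783) with 2 control arrays detected, and the related inhibitor Nfkbie rose by 1.03 (SE 0.22, adjusted p = 0.00831). Nfkb2, the p100 subunit, fell by 1.02 (SE 0.27, adjusted p = 0.0253), and Tnfaip3, the ubiquitin-editing inhibitor A20, fell by 0.82 (SE 0.15, adjusted p = 0.00382). Nfkb2 and Tnfaip3 lost their calls with the deposited values (adjusted p = 0.253 and 0.159) and median scaling (0.261 and 0.361), where rises and falls numbered 5 and 0, and 6 and 0. Nfkb2 did so without the replicate block (0.0564) and batch 2 (0.0562) as well, and Nfkbie without batch 1 (0.0504), which left 1 rise and 2 falls.

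Interferon-inducible GTPases and Toll-like receptor genes held rises and 0 falls, in small lists with shares not far from the 20.9% called over all features. Of all features 9.94% fell. With detection on all 6 arrays, 2 of 11 GTPases (18.2%) and 2 of 8 Toll-like genes (25%) were called, against 20.9% of all features. Of the GTPases of immunity, 14 of 25 genes on the array were tested, of which 4 rose, 0 fell and 10 did not pass (28.6% called). Ifi47, a GTPase that targets intracellular microbes, stood at 9.13, 8.92 and 8.43 in the control arrays and 10.49, 10.46 and 10.62 in the AhR null arrays. Its groups were apart and it rose by 1.70 (SE 0.19, adjusted p = 0.000149). The guanylate-binding protein genes Gbp10 and Gbp3 rose by 1.85 and 1.46, each with 1 control array detected, and Gbp11 was at least 2.23-fold higher (adjusted p = 0.00125). Guanylate-binding protein genes are alike in sequence, so these may not be 3 separate signals. Of the Toll-like receptors and adaptors, 11 of 21 genes on the array were tested, of which 3 rose, 0 fell and 8 did not pass (27.3% called). Tlr2, a receptor for bacterial lipoproteins undetected in control, was at least 2.56-fold higher (adjusted p = 0.00153), Ly96, the partner of TLR4, rose by 0.89 (SE 0.19, adjusted p = 0.00883), and the kinase Irak2 rose by 0.65 (SE 0.19, adjusted p = 0.0326). The medians were 0.28 relative to that of all features (0.20 with the deposited values, 0.33 with median scaling, 0.33 with detected-probe scaling, and 0.05, 0.21 and 0.54 without batch 1, 2 and 3), and 0.41 relative to that of all features (0.30 with the deposited values, 0.40 with median scaling, 0.40 with detected-probe scaling, and 0.45, 0.45 and 0.41 without batch 1, 2 and 3). Rises and falls numbered 11 and 0 with the deposited log2 values and 9 and 0 with median scaling for the GTPases and 8 and 0 with the deposited log2 values, 9 and 0 with median scaling and 1 and 0 without batch 1 for the Toll-like list. Ly96 lost its call without batch 1 (adjusted p = 0.116), and Irak2 without batch 1 (0.209), batch 2 (0.0845), the replicate block (0.0673) and with all 9 arrays (0.0547).

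The bHLH-PAS class, to which AhR belongs, also holds clock proteins. Of the bHLH-PAS and circadian genes, 13 of 35 genes on the array were tested, of which 3 rose, 4 fell and 6 did not pass (53.8% called). Per2, a repressor arm of the clock, stood at 8.43, 7.89 and 8.78 in the control arrays and 7.11, 6.46 and 6.98 in the AhR null arrays. Its groups were separate and it fell by 1.51 (SE 0.22, adjusted p = 0.000834). Per1, its paralogue, fell by 0.77 (SE 0.20, adjusted p = 0.0186) with overlapping groups. Arntl, the clock activator of the opposite phase, chosen after its value was seen, rose by 0.72 (SE 0.22, adjusted p = 0.044), with overlapping groups at 7.14, 6.89 and 7.93 in the control arrays and 7.86, 7.99 and 8.28 in the AhR null arrays. Bhlhb9, listed by name and not itself a clock gene, rose by 1.10 (SE 0.21, adjusted p = 0.00426). Ahrr, the AhR repressor described above and no clock gene either, was 1 of the 4 falls. Across settings, rises and falls came to 5 and 2 with the deposited log2 values, 5 and 2 with median scaling, 2 and 2 without the replicate block and 1 and 3 without batch 1. Per1 lost its call with the deposited values (adjusted p = 0.435), median scaling (0.616), without the replicate block (0.197) and without batch 1 (0.101), and Arntl without the replicate block (0.114), with no filter (0.0628), without batch 1 (0.186) and without batch 2 (0.228).

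Among granule proteins, the list of mast cell and serine proteases, which by name also holds the sulfotransferase Tpst2, was called often. Here 14 of 75 genes on the array were tested, of which 5 rose, 3 fell and 6 did not pass (57.1% called). Mcpt4, a chymase, stood at 6.53, 5.37 and 6.85 in the control arrays and 8.92, 7.13 and 12.64 in the AhR null arrays. The null arrays were widely spread, above the controls, and the gene rose by 3.31 (SE 0.58, adjusted p = 0.00288). Prss34, a tryptase-like protease also known from basophils, stood at 7.18, 9.43 and 7.65 in the control arrays and 10.87, 11.49 and 10.78 in the AhR null arrays and rose by 2.95 (SE 0.26, adjusted p = 3.22e-05), without overlap. The tryptase gene Tpsab1 rose by 2.09 (SE 0.39, adjusted p = 0.00393), and Prtn3, proteinase 3 of myeloid granules, was at least 1.57-fold higher (adjusted p = 0.00192). Mcpt4 lost its call without the replicate block (adjusted p = 0.05) and with robust variances (0.15), and Tpsab1 with the latter (0.0951), and rises and falls numbered 8 and 3 with the deposited log2 values, 3 and 2 without the replicate block and 3 and 3 with robust variances.

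Calcium-binding annexins and S100 proteins, and peroxide-removing enzymes, also differed. Of the annexins and S100 proteins, 16 of 26 genes on the array were tested, of which 5 rose, 4 fell and 7 did not pass (56.2% called). Anxa5, which binds phosphatidylserine, stood at 12.01, 11.73 and 11.25 in the control arrays and 9.86, 8.85 and 9.85 in the AhR null arrays. Its groups were apart and it fell by 2.14 (SE 0.23, adjusted p = 0.000126). Anxa3, known from neutrophil granules, rose by 2.32 (SE 0.20, adjusted p = 2.45e-05), and S100a9, the partner of S100a8, was at least 2.4-fold higher (adjusted p = 0.000137), being undetected in control. The S100a6 fall, named after its value was seen, was -2.03. Rises and falls numbered 8 and 2 with the deposited log2 values, 7 and 2 with median scaling and 4 and 2 without the replicate block. Of the peroxidases and thioredoxins, 28 of 42 genes on the array were tested, of which 8 rose, 1 fell and 19 did not pass (32.1% called). The glutathione peroxidase Gpx3 stood at 5.40, 5.52 and 6.58 in the control arrays and 7.65, 8.99 and 7.50 in the AhR null arrays. It rose by 2.22 (SE 0.40, adjusted p = 0.00328) with 1 control array detected, catalase, Cat, rose by 0.98 (SE 0.18, adjusted p = 0.00335), and the mitochondrial peroxiredoxin Prdx3 rose by 0.92 (SE 0.24, adjusted p = 0.0204). The fall was Txnrd1, thioredoxin reductase, at -0.73. The counts of rises and falls became 18 and 0 with the deposited log2 values, 18 and 0 with median scaling, 5 and 0 without the replicate block and 3 and 0 without batch 1, with Cat lost without batch 1 (adjusted p = 0.0652) and Prdx3 without batch 1 (0.175), batch 2 (0.051) or the replicate block (0.0511).

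After quantile normalisation 6 large families, most of them housekeeping, were called less often than all features. Other cell maintenance lists, outside the 32 families, lay on both sides of the 20.9% of all features. Chaperones (22.4% called), glycolysis enzymes (27.3%) and ubiquitin-specific proteases (30%) lay above it. Cytosolic ribosomal proteins (17%), translation factors (16.3%), cullin and Kelch-like genes (16.4%), RNA helicases and splicing factors (15.6%) and autophagy genes (13%) lay below. Of the ZFP and ZBTB zinc finger genes, 128 of 319 genes on the array were tested, of which 3 rose, 6 fell and 119 did not pass (7.03% called). Of the mitochondrial ribosomal proteins, 66 of 76 genes on the array were tested, of which 3 rose, 2 fell and 61 did not pass (7.58% called). Of the respiratory chain subunits, 76 of 87 genes on the array were tested, of which 4 rose, 2 fell and 70 did not pass (7.89% called). These medians, relative to all features, lay between -0.05 and 0.03, and between -0.10 and 0.12 with 1 batch left out. Of the proteasome subunits, 41 of 43 genes on the array were tested, of which 2 rose, 1 fell and 38 did not pass (7.32% called). Its rises included Psmb9 at 0.97, a subunit of the immunoproteasome. Of the tRNA synthetases, 25 of 35 genes on the array were tested, of which 0 rose, 2 fell and 23 did not pass (8% called). Of the BCL2 family and caspases, 23 of 34 genes on the array were tested, of which 0 rose, 1 fell and 22 did not pass (4.35% called). With the deposited values these 6 families had 44, 33, 44, 25, 10 and 10 rises, and with median scaling 41, 26, 35, 22, 9 and 9, where 45.4% and 40.4% of all features rose. The order turned for some of them: with the deposited values 57.9% of respiratory chain, 61% of proteasome and 50% of mitochondrial ribosomal genes were called against 48.3% of all features, and with median scaling 46.1% and 53.7% of the first 2 against 42.8%. The rises and falls of the 6 numbered 2 and 5, 1 and 0, 3 and 0, 1 and 0, 0 and 0, and 0 and 0 without the replicate block, and 1 and 1, 0 and 0, 3 and 0, 0 and 0, 0 and 0, and 0 and 0 without batch 1. Without batch 3 the tRNA synthetases had 3 rises and 0 falls, and the BCL2 and caspase genes 1 and 2.

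Markers of other cells the cultures could hold were summed on the linear normalised scale. Mast cell markers summed to between 200763 and 223939 on control arrays and between 207473 and 232425 on null arrays, which overlap, although 5 of the 14 rose and 2 fell. Quantile normalisation gives every array the same set of values, and this sum rests mostly on the brightest probes. Similar sums were therefore largely set in advance and cannot show whether the groups held equal shares of mast cells. Of 13 neutrophil markers on the array 5 were tested, all of them detected in the null group alone, and the sum over all 13 ran from 364 to 394 in control and from 1286 to 2037 in null. Camp, Elane, Lcn2, Ltf, Mmp8, Mmp9, Ngp and Retnlg, which include the granule genes that define neutrophils, were not detected on enough arrays to be tested. The 5 could be tested only because the groups differed, and the control sum was largely signal near background. Of 11 monocyte and macrophage markers 6 were tested, 4 rose and 1 fell, and the sum over all 11 ran from 1297 to 3598 in control and from 3467 to 8262 in null, with a small overlap. Within each batch it was higher in null, at 3467 against 1297 in batch 1, 4309 against 2544 in batch 2 and 8262 against 3598 in batch 3. C1qa, C1qb, C1qc, Ccr2 and Cd14 did not pass the detection filter. Within that list Apoe, Lyz2, Lyz1 and Ly6c1 rose by 3.64, 3.04, 2.62 and 2.16, and Cx3cr1, a chemokine receptor, fell by 1.61. Adgre1, the remaining marker tested, was detected on every array and did not pass, at -0.42 (SE 0.42, adjusted p = 0.51). Its batch differences were 0.78, -2.10 and 0.06.

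Basophil markers summed to between 10180 and 10934 in control and between 11643 and 13533 in null, without overlap, with 3 of 6 tested and Prss34 the rise. Most of the sum was Cd200r3, which did not pass, at -0.03 (SE 0.12, adjusted p = 0.879). Progenitor markers summed to between 3738 and 4334 in control and between 2561 and 3302 in null, with 5 of 8 tested and falls of Runx1 and Cd34. Red cell and megakaryocyte markers overlapped, at 3350 to 4724 and 3516 to 4241, with 5 of 9 tested, of which Klf1 rose and Vwf, a clotting factor carrier, fell (-3.03, SE 0.45, adjusted p = 0.0011), a call lost with robust variances (0.0936). Of 9 lymphocyte markers 0 passed the detection filter, and of 7 dendritic cell markers 2 did. Of 5 eosinophil markers 1 was tested, Prg2, a granule protein that was undetected in control and at least 2.11-fold higher (adjusted p = 0.00145) in null. Ccr3, Epx, Prg3 and Siglecf did not pass the detection filter. The sum over all 5 ran from 154 to 171 in control and from 197 to 344 in null. It rests on Prg2 and on signal near background, so it is no separate measure of eosinophils. S100a8, S100a9 and Prtn3 are on the neutrophil list and Apoe on the monocyte list, so their rises are part of those sums. The sums were also higher in the group in which Anxa3, Tlr2, Ly96, Itgb2, Il1b and the immune GTPases rose, and the part of such cells in those results was not tested.

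**Figure D5:**
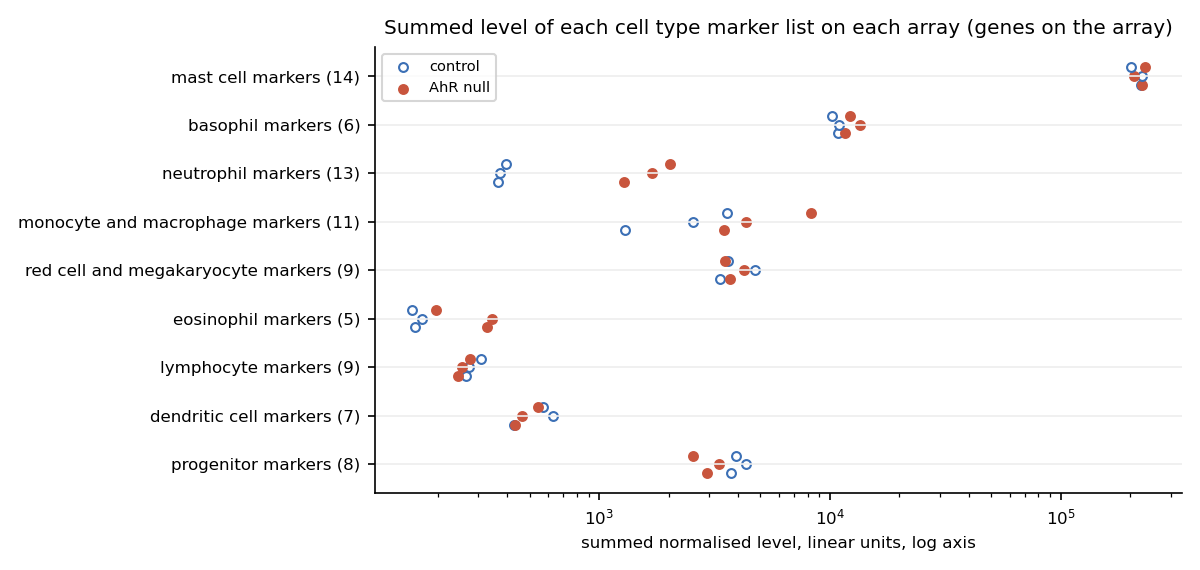
Sum of the normalised linear levels of each marker list on each array (log axis), with open points for control, filled points for AhR null and the number of markers on the array beside each name. Neutrophil sums lie between 364 and 394 in control, largely signal near background, and between 1286 and 2037 in null. Mast cell sums overlap, from 200763 to 223939 in control and from 207473 to 232425 in null, but rest on the brightest probes, whose values quantile normalisation makes alike.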

How the data were processed

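RNA was measured on single-colour Illumina beadchips for mouse (Ref-8). The deposited table holds linear signal intensity per probe with no scaling between arrays, and each column is followed by a detection p-value, per the file headers; the submitters' processing notes name GenomeStudio, with no version. A deposited table of log2 values equals the log2 intensity shifted by 1 constant per array (0.2831 to 0.9284), which puts each array's median at 8. A smaller deposited table, of probes the study chose, was not used.

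Background was modelled with normexp using the detection p-values, an offset of 16 was added, and the 6 arrays were quantile-normalised (neqc, limma 3.58.1, R 4.3.3). Features had a detection p-value under 0.01 on at least 3 arrays, and the probe with the highest mean stood for a gene. The platform annotation named 23978 probes, and 1719 had no name. Genotype was tested with culture batch as a block, and moderated variances with an intensity trend, 2 residual and 8.62 prior degrees of freedom. The threshold was an adjusted p (Benjamini-Hochberg) under 0.05. The labels give shared batches, and deviations from group means correlated at 0.15 to 0.31 within a batch and at -0.26 to -0.05 across batches. Such deviations cancel out within each group, so positive values within batches force negative ones across batches on balance. The negative values therefore add no separate information. For a gene undetected in a group, the bound ("at least N-fold") sets the brighter mean against a floor per array: the lowest signal detected there, or the probe's own value where that is higher. The script was tested on simulated data.

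Families were lists by gene symbol. The genes named were the 12 largest changes in each direction with 1 sign in all batches, up to 4 called members per list, 9 fixed genes (Ahr, Arnt, Ahrr, Cyp1a1, Cyp1b1, Tiparp, Nqo1, Fcer1a, Hmox1) and cell type markers; any other gene was picked with its value in view, as said beside it. Members and lists were chosen with earlier results of these data known. The 15 alternatives changed the scaling, background, offset, filter, probe choice, variances, block, arrays or batches used.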

Additional observations from a re-analysis of the deposited data

How the results depend on the processing

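The 1496 calls (783 higher, 713 lower) numbered 996 (551 and 445) with no replicate block, and from 544 to 1784 with 1 batch left out (309 to 927 higher, 235 to 857 lower). The deposited log2 values gave 3468 calls (3258 higher, 210 lower), of which 989 were among the 1496, and median scaling 3072 (2900 and 172), of which 951 were. All 9 arrays gave 1579 calls, scaling on detected probes 1596, cyclic loess 1578, no background correction 1546, an offset of 50 1518, no filter 1345, detection on all 6 arrays 1221, every detected probe 1864 and robust variances 1583. Medians of the 32 families with undetected genes at their bound kept their sign in all 32. The number of arrays and signal near background limit what could be detected: 251 features were tested with detection in 1 group alone. The cause of these changes was not tested.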

Other observations

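Chemokine genes and receptors, outside the families described, changed in both directions. Of 10 chemokine genes tested 2 rose, 1 fell and 7 did not pass (30% called), and of 4 receptors 2 rose, 1 fell and 1 did not pass (75%), against 20.9% of all features. Ccl4, a chemokine that draws T cells and monocytes, stood at 13.14, 12.17 and 13.39 in the control arrays and 10.45, 10.58 and 11.07 in the AhR null arrays. The groups did not overlap and it fell by 2.20 (SE 0.19, adjusted p = 2.79e-05). Ccl7, a monocyte chemokine, stood at 8.75, 9.64 and 9.98 in the control arrays and 11.23, 11.47 and 11.76 in the AhR null arrays and rose by 2.03 (SE 0.17, adjusted p = 2.47e-05), also with separate groups. Cxcr4, the receptor that retains blood cell precursors in marrow, was undetected in control and was at least 1.4-fold higher (adjusted p = 0.00572). None of these 3 lost its call in any alternative setting in which it was tested, and Cxcr4 has no value under the filter for detection on all 6 arrays.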
